A study of Rattus norvegicus with 4 samples.

Results

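The signal of 10 cytokine genes was examined in AA4-selected cells, labelled as mast cells, of the rat lymph node that drains the pancreas: lymphotoxin beta (Ltb), lymphotoxin alpha (Lta), the macrophage and granulocyte-macrophage colony-stimulating factors (Csf1, Csf2), interleukins 2, 3, 4, 5 and 13 (Il2, Il3, Il4, Il5, Il13) and interferon gamma (Ifng). Members were all probe sets, that is groups of short probes for 1 transcript, that the array's annotation assigns to a single one of these gene symbols. This gave 14 of 31042 probe sets that were not controls, and 10 of 14217 genes with such a set, with 4 for Csf1, 2 for Csf2 and 1 for each of the other genes. One group of cells came from diabetes-prone BioBreeding DRlyp/lyp rats, which carry the lyp mutation of Gimap5 on both chromosomes and have few peripheral T cells, and the other, to which it was compared, from diabetes-resistant BioBreeding DR+/+ rats with the normal allele. All animals were female and 65 days old, the labels name no treatment, and all cells were selected with AA4, an antibody against rat mast cells. RNA of 8 animals formed the pool of each group, and every pool went through 2 separate amplifications with an array each, so that there were 4 arrays. The p-values therefore compare 2 pools through the spread between amplifications and carry no spread between animals.

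Helper T cells, innate lymphoid cells and mast cells make Il4, Il5 and Il13, the type 2 cytokines, after stimulation, and these genes are transcribed little in resting cells. Il2 and Ifng are products of activated T cells and, for Ifng, natural killer cells. Lymphotoxin alpha and beta form a membrane complex on lymphocytes that signals to the stroma of lymph nodes and keeps their architecture, whereas Csf1 is made mostly by stromal cells and sustains macrophages.

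Transcription of Ltb and Lta is known to respond to NF-kB, and that of Il4 to NFAT, a factor of stimulated lymphocytes. The 300 bases around the annotated starts of these genes are shown because Ltb and Lta had signal above background on every array while Il4 stayed near background on 3 of the 4. They run from 250 bases before to 50 bases after the start, in RefSeq's GRCr8 assembly, and 8 of the 10 member genes were matched to such a sequence. Csf1 and Il13 were not. The motifs could thus not be looked for in Csf1, which also had a set above background on every array. Ltb lies at chr20:3634005-3634304 on the minus strand, Lta at chr20:3623277-3623576 on the plus strand and Il4 at chr10:38277500-38277799 on the minus strand. Capitals mark the NFAT core GGAAA on either strand (TTTCC on the other) and the NF-kB consensus, which overlaps a GGAAA in the Ltb sequence.
Ltb: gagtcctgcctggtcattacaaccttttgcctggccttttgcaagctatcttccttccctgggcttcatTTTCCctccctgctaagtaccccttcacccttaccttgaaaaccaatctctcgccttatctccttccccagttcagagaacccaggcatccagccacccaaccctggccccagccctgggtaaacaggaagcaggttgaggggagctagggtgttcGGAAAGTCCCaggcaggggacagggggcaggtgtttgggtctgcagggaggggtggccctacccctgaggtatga
Lta: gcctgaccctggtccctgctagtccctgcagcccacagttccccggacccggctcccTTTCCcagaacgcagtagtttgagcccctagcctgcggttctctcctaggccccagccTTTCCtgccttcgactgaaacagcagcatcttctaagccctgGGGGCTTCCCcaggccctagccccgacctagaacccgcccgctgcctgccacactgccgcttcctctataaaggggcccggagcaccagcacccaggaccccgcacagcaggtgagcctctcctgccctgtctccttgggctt
Il4: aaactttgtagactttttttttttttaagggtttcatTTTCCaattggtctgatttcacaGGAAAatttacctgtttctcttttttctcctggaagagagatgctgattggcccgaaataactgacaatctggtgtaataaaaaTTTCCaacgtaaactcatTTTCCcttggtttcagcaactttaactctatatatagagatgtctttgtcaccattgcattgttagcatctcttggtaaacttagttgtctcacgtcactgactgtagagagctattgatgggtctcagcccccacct

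The NF-kB consensus was found in 2 of the 8 member sequences, those of Ltb and Lta, and in 4.18% of 33469 RefSeq start regions of the same length. GGAAA or its complement occurred in all 8, with 4 matches in Il4 and 2 each in Ltb and Lta, but 62.7% of all start regions hold it. The AP-1 motif TGANTCA occurred in 0 of the 8 and in 7.33% of all regions. A match is a description of these letters and not evidence of binding. Among protein-coding genes in RefSeq's order, Tnf alone lies between Lta and Ltb. Il4, Il13, Il5, Csf2 and Il3 lie within a run of 12 protein-coding genes on chromosome 10.

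The labelled cell type was checked against its markers, since other cells of the node also make these cytokines. Of 11 mast cell markers with a probe set 9 could be tested, but Kit, the receptor of stem cell factor, did not exceed 28.3 on any array. Of the cell type lists, the one with the largest median difference was that of the exocrine pancreas, with 11 of 11 tested genes higher in the DRlyp/lyp pool, a median log2 difference of 5.15 and summed signals of 9211 and 9411 in the DRlyp/lyp pool and 243 and 239 in the DR+/+ pool. Of these 11 genes 6 were dim in the DR+/+ pool and so could only be tested as higher. Its part in the differences below was not tested. Summed over the tested markers, the DRlyp/lyp arrays read 11269 to 11362 for 14 T cell genes, 12813 to 13554 for 8 B cell genes and 7511 to 7640 for 9 macrophage genes. The DR+/+ arrays read 2461 to 2702, 16344 to 17804 and 11834 to 12500 for the same lists, in that order. The 9 mast cell markers did not move one way: 3 were called lower, 2 were called higher and 4 did not pass. The lower ones were the tryptases Tpsab1 (-1.87) and Tpsb2 (-1.53) and Hpgds (-0.58), the higher ones Mcpt1 (1.30) and Fcer1a (0.85). In the DRlyp/lyp pool the tryptases read 19.9 to 34.4, around the background limit of 28.3. The median log2 difference of the 9 markers was -0.016. Their sum was 2822 to 2898 in the DRlyp/lyp pool and 1902 to 1987 in the DR+/+ pool with the chymase Mcpt1, and 1220 to 1233 in the DRlyp/lyp pool and 1247 to 1318.5 in the DR+/+ pool without it, a version chosen after seeing the data. Markers near background on all 4 arrays were Cd28 for T cells and Kit for mast cells, and there were 0 in the B cell and macrophage lists. Of the 8 tested genes of the group 2 innate lymphoid list, 8 were higher in the DRlyp/lyp pool, where 20.9% of all tested genes were. Of these, 2, Il1rl1 and Il2ra, passed the filter through that pool alone and could only be tested as higher. Another probe set of Id2, a gene of that list, was called lower (-1.85, adjusted p = 0.0005 by limma). In that list Rora and Areg stayed near background. The T cell list moved the same way, with 13 of 14 tested genes higher and 1 lower. The lower one, Cd4, was dim in the DRlyp/lyp pool and could only be tested as lower. The median log2 difference of the T cell list was 2.15, against 1.88 for the group 2 innate lymphoid list. Which cells gave these differences was not tested. For beta-actin, the log2 signal of the 3′ control set exceeded that of the 5′ set by 4.49 in the DRlyp/lyp pool and by 3.05 in the DR+/+ pool on average, a gauge of how short the amplified RNA was. The arrays thus read markers of T cells, B cells and macrophages beside those of mast cells. The DRlyp/lyp arrays also read those of exocrine pancreas, of which 6 of 11 were dim in the DR+/+ pool. The cytokine signals below can therefore not be assigned to mast cells. In pooled material, fewer cells of a type and less RNA per cell cannot be told apart.

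A probe set was treated as measured above background where its signal exceeded 28.3, the median over all probe sets and arrays, because no detection calls were used. At that limit 7 of the 14 member probe sets were near background on all 4 arrays, against 43.8% of all probe sets. Among the 20826 probe sets with 1 symbol, from which the members were drawn, the share was 38.0%. As a guide, 33 of 34 probe sets for genes of unrelated tissues, such as pituitary hormones and sperm proteins, were near background too, and the highest of these 34 read 34.7. The highest signals of the 7 dim member probe sets lay between 9 and 17.8. Only 3 member probe sets exceeded the limit on all 4 arrays: those of Ltb and Lta and the set 1380582_at of Csf1.

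**Figure D1:**
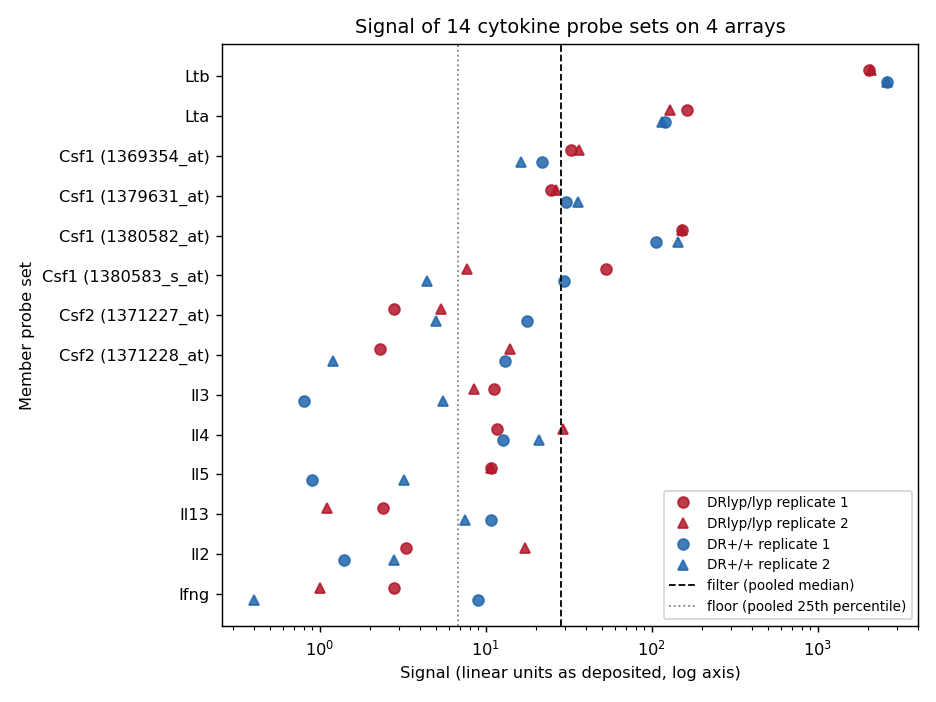
Signal of each of the 14 member probe sets (rows) on each of the 4 arrays, in linear units on a log axis, with DRlyp/lyp in red and DR+/+ in blue. Circles are replicate 1 and triangles replicate 2, the dashed line is the limit of 28.3 and the dotted line the floor of 6.8. Ltb stands at 2034 or more on every array, Lta and 1 Csf1 set lie between 106 and 162, and the Csf2, Il3, Il5, Il13, Il2 and Ifng sets stay left of the dashed line.

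**Figure D2:**
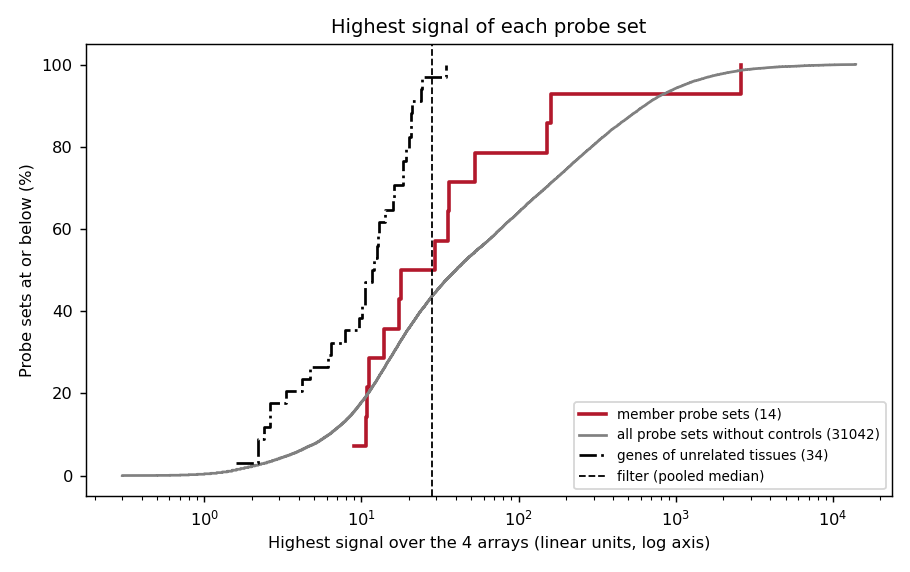
Cumulative share of probe sets (vertical axis, percent) by their highest signal over the 4 arrays (horizontal axis, linear units, log scale) for the 14 member sets, the 31042 sets in all and 34 sets of unrelated tissues. At the dashed limit of 28.3, 50% of member sets, 43.8% of all sets and 97.1% of unrelated sets lie at or below it.

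Differences were tested for the probe sets above 28.3 on at least 2 of the 4 arrays, on log2 values with a floor of 6.8, which is the 25th percentile of all arrays together. Of the 14 member probe sets 6 passed, for the 3 genes Ltb, Lta and Csf1. By limma, with p-values adjusted after Benjamini and Hochberg over 16068 tested probe sets, 1 of these 6 was called lower in the DRlyp/lyp pool and 0 were called higher. Of all probe sets tested, 39.2% were called, 19.9% lower and 19.3% higher, so 1 call in 6 is no more than the share among all probe sets. At an unadjusted p under 0.05 the count of higher members was also 0. At an adjusted p under 0.05 that count was 1, a Csf1 set, when limma's intensity trend was left out. The 6 differences had a median of 0.30 on the log2 scale, against -0.00050 over all probe sets tested, but 2 of the 6 passed the filter through 1 pool alone.

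Ltb, the membrane-anchored chain of the lymphotoxin heterotrimer, was the 1 member that was called. It read 2034 and 2104 in the DRlyp/lyp pool, against 2604 and 2597 in the DR+/+ pool. All 4 arrays lay far above background, the DRlyp/lyp arrays were the low ones and the pools did not overlap. The means were 2069 ± 49.5 and 2601 ± 5.3 (SD, n = 2 arrays each), a log2 difference of -0.33 (SE 0.06, 95% interval -0.46 to -0.20), or 1.26-fold lower in the DRlyp/lyp pool, with an adjusted p of 0.00128 by limma. Ltb is expressed by B and T cells, and the B cell list was lower and the T cell list higher in the same pool, by the sums given above; their part in the difference was not tested. The call did not pass when all 31042 probe sets entered the fit (adjusted p = 0.0525) or when limma's intensity trend was left out (adjusted p = 0.098).

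Lta, the chain that is secreted alone as a homotrimer or held at the membrane by Ltb, read 161.8 and 128.2 in the DRlyp/lyp pool and 120.1 and 114.8 in the DR+/+ pool. The DRlyp/lyp arrays were the higher ones without overlap, but replicate 1 of that pool stood apart from replicate 2 by more than the gap between the pools. The means were 145 ± 23.8 and 117 ± 3.75, and the log2 difference was 0.29 with a 95% interval from -0.13 to 0.72 (adjusted p = 0.254, limma). It was 0.13 without DRlyp/lyp replicate 1 and 0.46 without DRlyp/lyp replicate 2. The interval includes no difference and also a rise of up to 1.65-fold. Lta and Ltb thus had opposite signs, and whether their differences differ was not tested. Tnf, the cytokine gene between them, read 173.8 and 198.8 in the DRlyp/lyp pool and 152.8 and 119.1 in the DR+/+ pool on its tested set, a log2 difference of 0.46 that missed the threshold (adjusted p = 0.0682) and was 0.28 without DR+/+ replicate 2. That call passed under 4 of the 12 alternatives. A second Tnf set stayed below 5 on all 4 arrays.

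Csf1, the growth factor of macrophages, had 4 probe sets, and they did not give 1 picture. The set above the limit on all 4 arrays, 1380582_at, read 152.6 and 151.2 in the DRlyp/lyp pool and 106.1 and 144.3 in the DR+/+ pool. The DR+/+ replicates were far apart and both below the DRlyp/lyp arrays. Its log2 difference was 0.30 with a 95% interval from -0.14 to 0.73 (adjusted p = 0.264). The difference was 0.074 without DR+/+ replicate 1 and 0.52 without DR+/+ replicate 2.

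The other Csf1 sets lay around the background limit. The set 1369354_at read 32.6 and 36.2 in the DRlyp/lyp pool and 21.8 and 16.3 in the DR+/+ pool, so both DR+/+ arrays were dim and the set entered the test through the DRlyp/lyp arrays. The DRlyp/lyp arrays stood 1.21-fold above the limit on average, and the log2 difference on the floored scale was 0.87 (95% interval -0.04 to 1.77, adjusted p = 0.119). The set 1379631_at had the opposite order, with 24.6 and 26.6 in the DRlyp/lyp pool and 30.2 and 35.7 in the DR+/+ pool. It passed the filter through the DR+/+ arrays alone, which stood 1.16-fold above the limit on average. The log2 difference was -0.36 (95% interval -1.19 to 0.47, adjusted p = 0.489), and -0.24 without DR+/+ replicate 2. Both intervals include 0, so neither fold over the limit is a least size of a difference between the pools. These 2 sets lie just inside the filter and the Il4 set, with 1 array above it, just outside.

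The fourth set, 1380583_s_at, followed the replicate number and not the pool. It read 52.8 and 7.7 in the DRlyp/lyp pool and 29.6 and 4.4 in the DR+/+ pool, so replicate 1 was high and replicate 2 low in each. Its log2 difference of 0.51 had a 95% interval from -1.41 to 2.43 (adjusted p = 0.682) and turned negative without DRlyp/lyp replicate 1 (-0.88) or without DR+/+ replicate 2 (-0.55). The annotation ties this set and 1380582_at to the same sequence record, AW535553. Across the 6 tested member sets, 5 had arrays that did not overlap between the pools, the exception being this one, and 70.0% of all tested probe sets did not overlap either.

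**Figure D3:**
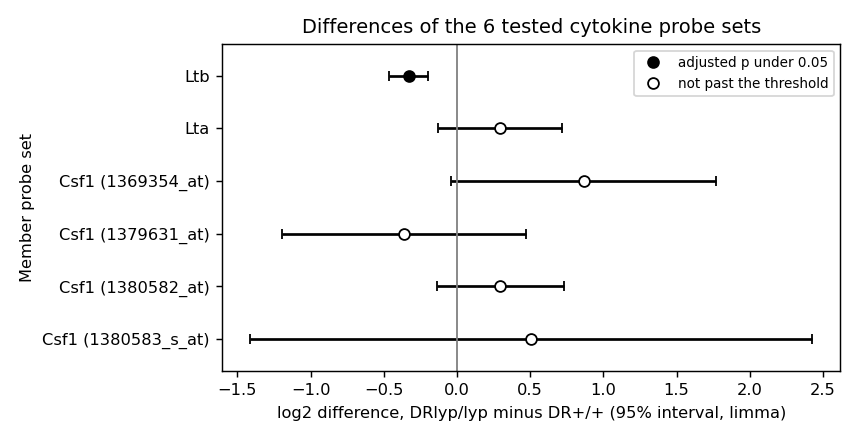
Log2 differences, DRlyp/lyp minus DR+/+, of the 6 tested member probe sets (rows) with 95% intervals from limma; filled points passed an adjusted p of 0.05. The interval of Ltb, -0.46 to -0.20, is the 1 that excludes 0, and the interval of the Csf1 set 1380583_s_at spans -1.41 to 2.43.

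Among the type 2 cytokines, Il4, which drives IgE class switching and T helper 2 differentiation, was the 1 with an array above the limit. It read 11.7 and 29.2 in the DRlyp/lyp pool and 12.6 and 21.0 in the DR+/+ pool. DRlyp/lyp replicate 2 alone exceeded the limit of 28.3, by little, and the pools overlapped. Il5, the survival factor of eosinophils, read 10.7 and 10.8 in the DRlyp/lyp pool and 0.9 and 3.2 in the DR+/+ pool, and Il13, which acts on epithelium and macrophages, read 2.4 and 1.1 in the DRlyp/lyp pool and 10.7 and 7.5 in the DR+/+ pool. Il5 had its higher arrays in the DRlyp/lyp pool and Il13 in the DR+/+ pool, all at levels that genes of unrelated tissues also reached. With no filter, Il5 passed the threshold (log2 difference 0.66, adjusted p = 0.0292) and Il13 did not (-0.40, adjusted p = 0.441). Both DR+/+ values of Il5 were then replaced by the floor of 6.8, which left them no spread, so no fold is given for it.

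Il3, a growth factor of mast cells and basophils in rodents, read 11.2 and 8.5 in the DRlyp/lyp pool and 0.8 and 5.5 in the DR+/+ pool. Csf2, which sustains granulocytes and macrophages, read 2.8 and 5.4 in the DRlyp/lyp pool and 17.8 and 5.0 in the DR+/+ pool on the set 1371227_at. On its other set, 1371228_at, it read 2.3 and 14 in the DRlyp/lyp pool and 13.1 and 1.2 in the DR+/+ pool. Both Csf2 sets overlapped between the pools, and the array that was highest differed between them although the annotation ties both to the record U00620. The Il3 arrays did not overlap, but 2 of them lay below the floor.

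The lymphocyte products Il2 and Ifng also stayed below the limit on all 4 arrays. Il2, the growth factor of T cells, read 3.3 and 17.3 in the DRlyp/lyp pool and 1.4 and 2.8 in the DR+/+ pool. Ifng, the main activator of macrophages, read 2.8 and 1.0 in the DRlyp/lyp pool and 9.0 and 0.4 in the DR+/+ pool. In each, 1 array was above the floor of 6.8 and the other 3 at or below it, the higher one being DRlyp/lyp replicate 2 for Il2 and DR+/+ replicate 1 for Ifng. With no filter the adjusted p was 0.567 for each. A signal near background does not show that a transcript is absent, since a probe set can respond poorly.

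Between Il4 and Il3 the gene order holds Rad50, a DNA repair gene, and Irf1, an interferon-responsive transcription factor, both named after their values were seen. Rad50 had 2 tested sets, and the one chosen to represent it read 143.6 and 158.0 in the DRlyp/lyp pool and 212.7 and 158.4 in the DR+/+ pool (log2 difference -0.29, adjusted p = 0.25). Leaving out DR+/+ replicate 1 gave -0.073 and leaving out DR+/+ replicate 2 gave -0.50. Irf1 read 1268 and 1209 in the DRlyp/lyp pool and 1598 and 1717 in the DR+/+ pool, lower by 0.42 on the log2 scale (adjusted p = 0.00104). Of the other genes of this run, Slc22a21 and Slc22a4 were not tested, with highest signals of 21.1 and 38.7.

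The probe sets whose 4 arrays ran most like those of Ltb were those of Scand1, Fut4 and Bcl10, at Euclidean distances of 0.0243, 0.0261 and 0.0273 between centred log2 values over 4 arrays. Of 12097 named probe sets compared, 192 lay within 0.1, so this likeness singles out no gene.

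Of the 17 receptor genes on the list 14 could be tested, against 3 of the 10 cytokines. Of these 14 receptors 2 were called higher, 2 lower and 10 did not pass the threshold, and the median log2 difference was -0.04, against 0.00075 over all 9349 tested genes. Over the 8 lists around the cytokines 39 of 77 tested genes were called, 20 higher and 19 lower, where 42.0% of all tested genes were called (20.9% higher and 21.1% lower). Il2rg, the common chain of the Il2 and Il4 receptors, read 1785 and 2020 in the DRlyp/lyp pool and 3214 and 3528 in the DR+/+ pool (log2 difference -0.83, adjusted p = 7.98e-06). Csf1r, the receptor of Csf1 and a macrophage marker, read 1039 and 922 in the DRlyp/lyp pool and 1556 and 1560 in the DR+/+ pool (-0.67, adjusted p = 7.67e-05). With no filter Il2rg (adjusted p = 0.0631), Csf1r (0.0597) and Il2ra (0.145) missed the threshold by limma, and Csf2ra (0.0411) passed it. Csf1r is itself 1 of the 9 genes in the lower macrophage sum given above. Of those 9 genes 6 were called lower and 2, Cd68 (0.50) and Mrc1 (0.67), higher.

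Csf2ra, the alpha chain of the Csf2 receptor, read 756 and 809 in the DRlyp/lyp pool and 515 and 516 in the DR+/+ pool (0.60, adjusted p = 0.000495). Il2ra, the high-affinity chain for Il2, read 44.6 and 41.7 in the DRlyp/lyp pool and 13.9 and 2.1 in the DR+/+ pool. It was dim there and entered the test through the DRlyp/lyp arrays alone, so its call as higher, by at least 1.52-fold (adjusted p = 0.00523), is partly set by the filter. That call was lost without DRlyp/lyp replicate 1 (adjusted p = 0.0796) or replicate 2 (adjusted p = 0.0601). Receptors named after their values were seen were Ltbr, the receptor of the lymphotoxin heterotrimer (0.09, adjusted p = 0.754), Ifngr1 (0.02, adjusted p = 0.778) and Il4r (-0.53, adjusted p = 0.0546). Il5ra stayed near background on all 4 arrays.

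Genes that these cytokines are known to induce differed in direction by list. Over all tested genes 20.9% were called higher and 21.1% lower. Of 8 tested targets of Il4 and Il13, 5 were called higher and 0 lower, with a median of 0.62, and 1 of the 8 was dim in 1 pool. Mrc1, 1 of the 5, is also on the macrophage list. Cish, a feedback inhibitor that is also on the signalling list, read 171.5 and 197.0 in the DRlyp/lyp pool and 53.7 and 41.5 in the DR+/+ pool. The lectin Clec10a read 507 and 453 in the DRlyp/lyp pool and 182 and 236 in the DR+/+ pool. Of 12 tested targets of Ifng, 1 was called higher and 8 lower, with a median of -0.51. The chemokine Cxcl9 read 66.5 and 43.3 in the DRlyp/lyp pool and 132.8 and 155.4 in the DR+/+ pool. The higher 1, the class II transactivator Ciita, had another probe set that was called lower (-0.53). Of 6 tested genes on the list of lymphotoxin targets and lymphoid stroma 0 were called higher and 3 lower, with a median of -0.30. The 3 were Vcam1, Icam1, which is also counted among the Ifng targets, and Nfkb2, which is also on the signalling list. Near background on all 4 arrays, and so not tested, were Ccl21, Cxcl13, Madcam1, Tnfsf11 and Tnfrsf11a on this list. The same held for Ido1, Nos2 and Socs1 on the Ifng list and for Ccl11, Chia and Alox15 on the Il4 and Il13 list. The adhesion molecule Vcam1, which endothelium and macrophages also make, read 1074 and 1015 in the DRlyp/lyp pool and 2879 and 2875 in the DR+/+ pool. The probe sets of Il4, Il13 and Ifng themselves were too dim to be tested. Whether the T cell, B cell, macrophage and exocrine pancreas lists that moved between the pools have a part in these target counts was not tested.

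**Figure D4:**
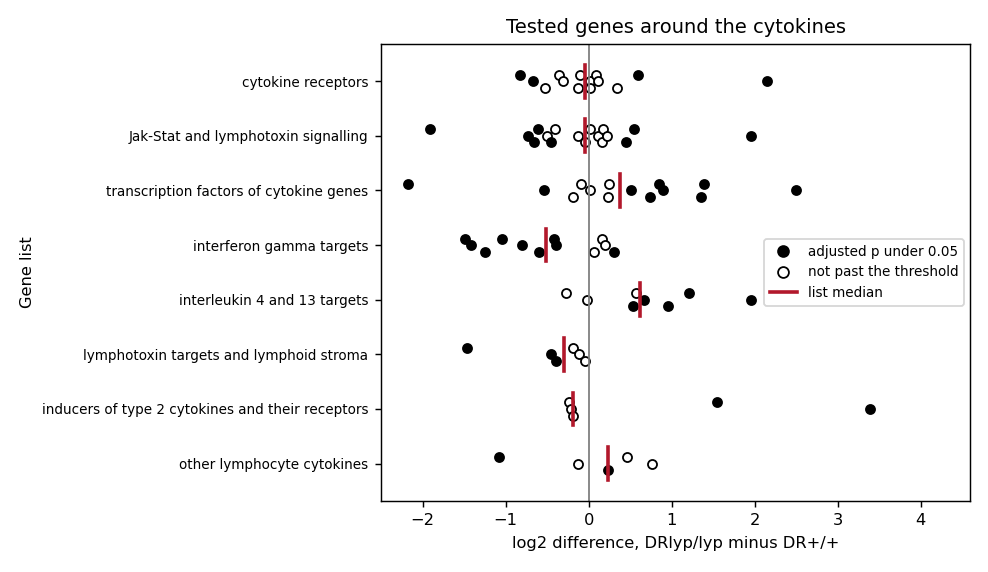
Log2 differences, DRlyp/lyp minus DR+/+, of the tested genes of 8 lists around the cytokines (rows), 1 point per gene, filled where the adjusted p was under 0.05; red bars are list medians. The medians run from -0.51 for interferon gamma targets to 0.62 for targets of interleukins 4 and 13.

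Of 14 tested transcription factors that act on cytokine genes 7 were called higher and 2 lower, with a median of 0.38. Gata3, which opens the Il4, Il5 and Il13 region in type 2 cells and is also a T cell gene, read 424 and 457 in the DRlyp/lyp pool and 85 and 71 in the DR+/+ pool (log2 difference 2.50, adjusted p = 6.72e-07), and Junb, an AP-1 subunit that binds the Il4 promoter, read 130.3 and 140.8 in the DRlyp/lyp pool and 576.3 and 645.7 in the DR+/+ pool. Of 17 tested Jak-Stat and lymphotoxin signalling genes 3 were called higher and 5 lower, with a median of -0.05.

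Of 5 tested genes for inducers of type 2 cytokines and their receptors, 2 were called higher and 0 lower, although the list median was -0.19. Il1rl1, the receptor of interleukin 33 on mast cells and innate lymphoid cells, was dim in the DR+/+ pool and higher by at least 4.13-fold against the limit; it too entered the test through the DRlyp/lyp arrays alone. Of 5 other lymphocyte cytokines tested, 1 was called higher and 1 lower, with a median of 0.23. Il6 was the lower one, at 45.2 and 41.3 in the DRlyp/lyp pool and 82.7 and 100.1 in the DR+/+ pool (log2 difference -1.07, adjusted p = 0.00694); with DRlyp/lyp replicate 2 left out it missed the threshold (adjusted p = 0.059). Il16 was the higher one, by 0.23, with an adjusted p of 0.0377. It missed the threshold when any array but DR+/+ replicate 2 was left out (adjusted p from 0.116 to 0.247) and with medians centred (adjusted p = 0.399). Il10, Il17f and Cd40lg were near background on all 4 arrays, as most of the lymphocyte cytokines above were.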

How the data were processed

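RNA was measured on Affymetrix Rat Genome 230 2.0 arrays after 2-cycle amplification of about 50 ng, per the labels' design text. The deposited values are intensity in linear units, 1 per probe set and array. Of the authors' program and scaling the sources used here give nothing. All 4 arrays share a 2% trimmed mean of 150.1, and this scaling was kept. Groups came from the titles, where DP was read as DRlyp/lyp and DR as DR+/+.

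Control sets (57) were left out. Values were floored at 6.8 and log2 transformed, and sets above 28.3 on at least 2 arrays were tested two-sided with limma 3.58.1 (R 4.3.3, intensity trend) with Benjamini-Hochberg adjustment and a threshold of 0.05. Levels were not compared between genes, except against the common background limit, the sets of unrelated tissues and within a gene to choose its brightest set. Where both arrays of a pool were dim, the fold is that of the other pool against 28.3, a bound on the signals read and not on a true change. Symbols came from the platform annotation of 2016 (20826 sets with 1 symbol, 436 with several, 9780 with none in that table); a listed gene was represented by its brightest tested set. RefSeq tables (GRCr8) gave gene order and sequences, and the files name no build.

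Members and lists were chosen with earlier results of these data known. The text names every member set, genes from the 3 largest called differences in each direction of a list (arrays not overlapping), and genes stated as named with their values known. The fit was tested on simulated data for this comparison (16068 probe sets): of 50 changed sets per size it found 12% at a log2 size of 0.5, 36% at 1, 82% at 2 and 94% at 3, and 3 of its 115 calls were false. The changed sets were a far smaller share than the 39.2% called in the real data. These rates therefore do not tell how often the real fit finds a change of each size. Same-numbered arrays did not deviate together (r = 0.0438 across tested probe sets, which are not independent). The alternatives were another scaling, filter, floor, offset or variance model, a replicate block and leaving out each array. Plots were made in Python 3.11.15 (matplotlib 3.10.9).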

Additional observations from a re-analysis of the deposited data

How the results depend on the processing

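Each difference was recomputed with quantile normalization, medians centred, other filters, floors, an offset of 50, a replicate block, no intensity trend and without each array. Of 67 recomputed member differences 62 kept their sign and their side of the threshold. Ltb stayed lower in all 12, between -0.44 and -0.31, and lost its call with no filter (-0.33, adjusted p = 0.0525) and with no intensity trend (-0.33, adjusted p = 0.098). Without the trend the 1 member called was the Csf1 set 1369354_at (0.87, adjusted p = 0.0406), and with no filter it was Il5. The replicate block kept 1 member called (Ltb, adjusted p = 1.45e-06), changed no member's call and gave 7044 calls over all probe sets, against 6302. The numbers are not known to pair the arrays. With the block, Il4r (adjusted p = 0.0444) and Tnf (adjusted p = 0.0405), which are not members, also passed. Over all probe sets the count was 1671 with no filter, 4057 without the trend and between 3478 (without DRlyp/lyp replicate 1) and 5800 when 1 array was left out (3767 without DRlyp/lyp replicate 2). With medians centred, 36.1% of calls were higher, against 49.3%, and all differences moved by -0.11. The list genes called numbered 17 with no filter, against 39, and lay between 26 and 38 when 1 array was left out. With the background limit at the 75th percentile (164.7) 13 member sets were near background on all arrays, and at the floor 0 were. The sign turned for the Csf1 set 1380583_s_at without DRlyp/lyp replicate 1 (-0.88) or DR+/+ replicate 2 (-0.55; range -0.88 to 1.90 over the arrays left out), for Ltbr with medians centred (-0.018) or without DR+/+ replicate 2 (-0.16; range -0.16 to 0.35), and for Ifngr1 with quantile normalization (-0.039), medians centred (-0.090) or without DRlyp/lyp replicate 1 (-0.0097; range -0.0097 to 0.054). Of 621 recomputed differences of 53 other named genes, 64 lost a call, 7 gained one and 5 turned sign. The cause of these changes was not tested.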
